A study of Mus musculus with 3 samples.

Results

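The 9 genes described here encode the machinery that loads peptides onto MHC class II molecules and the factors that switch this machinery on, and they were taken by name from the 27998 genes measured. They were Ciita and Rfx5 (regulators of transcription), Cd74 (the invariant chain), H2-DMa, H2-DMb1 and H2-DMb2 (the peptide editor H2-DM), H2-Oa and H2-Ob (the DM inhibitor H2-O) and Ctss (cathepsin S). Droplet single-cell RNA sequencing was applied to kidneys of Aoah-/- mice (2 animals, replicates 2 and 3) and of a single WT littermate (replicate 3), aged 6 to 8 weeks, 14 days after folic acid (FA) treatment, so every animal carried the FA injury. The Aoah mutation had been backcrossed to C57BL/6J and was present in every cell of the knockout animals, and no untreated kidney was part of this comparison. With 1 WT library no test between genotypes could be made, and each value below is given per library, in the order Aoah-/- replicate 2, Aoah-/- replicate 3 and WT replicate 3. The mutated gene itself, Aoah, was detected at 13.2, 12.3 and 26.4 CPM in proximal tubule cells and at 4.36, 4.47 and 20.3 CPM in macrophages, lower in both Aoah-/- libraries but not at 0. CPM stands for unique molecular identifiers (UMIs, counted molecules) of a gene per 1000000 UMIs of a cell class in a library.

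MHC class II molecules carry peptides to the surface of antigen-presenting cells. The invariant chain Cd74 holds the groove of a new class II molecule closed on its way to the endosome, cathepsin S cuts it down to a short remnant there, and H2-DM exchanges that remnant for peptides, while H2-O restrains H2-DM. CIITA is the coactivator that turns the whole set on: it binds no DNA itself and sits on a complex of RFX, CREB and NF-Y factors at the W, X and Y boxes of class II promoters. Dendritic cells, B lymphocytes and macrophages express CIITA without a stimulus or readily after one, and other cells, tubular epithelium among them, can do so after exposure to interferon gamma.

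Promoter sequences are shown for 5 members that hold runs like these boxes and for Ctss, which holds a run like the site of interferon regulatory factors. They were read from RefSeq windows on GRCm38.p6, plus strand, and 7 of the 9 members had such a window, which spans 250 bases before to 50 bases after the start. Capitals mark CTANNAACNNATGATG (an X box-like run) and TGATTGG or its reverse complement (a Y box-like run) in the class II loading genes and Rfx5, and GAAANNGAAA (an interferon regulatory factor-like run) in Ctss.
H2-DMb1, chr17:34153087-34153116: ggtttacCTAGTAACTGATGATGctaggct
H2-DMb2, chr17:34145111-34145175: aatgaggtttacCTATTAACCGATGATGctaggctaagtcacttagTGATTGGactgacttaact
H2-Ob, chr17:34238803-34238864: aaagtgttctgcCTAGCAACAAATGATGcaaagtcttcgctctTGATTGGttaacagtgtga
H2-Oa, chr17:34092323-34092351: gagaactgctcTGATTGGctgcttaccgc
Rfx5, chr3:94953983-94954072: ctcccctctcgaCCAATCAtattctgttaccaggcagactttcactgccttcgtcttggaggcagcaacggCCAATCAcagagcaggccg
Ctss, chr3:95526735-95526785: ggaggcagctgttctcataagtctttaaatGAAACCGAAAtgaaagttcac

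The X box-like run was found, on either strand, in 5 of 32851 promoter windows of the same length (0.0152%), the Y box-like run in 7.82% and the interferon regulatory factor-like run in 3.44%. Both boxes on the strand of the gene stood together in 4 windows, those of H2-DMb1, H2-DMb2, H2-Ob and the class II beta chain gene H2-Eb1. The Y box-like run followed the X box-like run after 18 bases in H2-DMb1 and H2-DMb2 and after 15 bases in H2-Ob. The stretch shown for H2-DMb1 ends at −75 from the start, before its Y box-like run at −63 to −57. The windows of H2-DMa held none of the 3 runs and that of Ctss neither box, H2-Oa held the Y box-like run without the X box-like letters, and Rfx5 held the Y box-like run 2 times on the opposite strand. The X box-like letters are those that the windows of H2-DMb1, H2-DMb2 and H2-Ob share, with N where they differ, and the other letters were also chosen after the windows had been read, so these shares describe the windows, and a match is not a binding site.

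In the GENCODE annotation of GRCm38, H2-Oa (chr17:34092340-34095234), H2-DMa (chr17:34119541-34139101), H2-DMb2 (chr17:34143307-34151555), H2-DMb1 (chr17:34153072-34160230) and H2-Ob (chr17:34238903-34254414) follow each other in this order on the plus strand of the class II region. Rfx5 (chr3:94954075-94961561) and Ctss (chr3:95526786-95556403) lie on chromosome 3, Ciita on chromosome 16 (chr16:10480059-10528418) and Cd74 on chromosome 18. H2-DMb1 and H2-DMb2 are near copies, so reads shared between them could be split or lost in counting, and their separate levels carry that uncertainty. H2-DMa, H2-Oa, Rfx5, Ciita, Ctss and Cd74 overlap other annotated genes, among them Brd2 (H2-DMa) and Dexi (Ciita) on the opposite strand. Whether the counting used strand is not given in the sources used here.

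The libraries held 167222984, 161015021 and 158551992 UMIs. After filtering, 21368, 19692 and 18202 cells were kept, with medians of 3357, 3678 and 3859 UMIs. Cells were clustered together without the class II genes, and clusters were named from marker genes. This gave 1143 dendritic-like cells, 2333 B lymphocyte-like cells, 4915 macrophage-like cells, 22592 proximal tubular epithelial (PTEC)-like cells and 4710 other tubular cells (intercalated-, distal convoluted tubule- and ascending limb-like). Over all barcodes the members ranged from 2472 UMIs for Ciita to 629189 UMIs for Cd74. The libraries shared 109 to 117 cell barcodes pairwise, at most 0.621% of a library. No barcode of Aoah-/- replicate 3 had fewer than 1672 UMIs, against 500 in the other libraries, and an unnamed cluster with markers of several cell types held 2849 of its 3113 cells from that library. Another unnamed cluster held 1405 of its 1496 cells from Aoah-/- replicate 2, with 24952 UMIs of Cd74 and 10080 UMIs of Ctss in that library. Unnamed clusters together held 31.9%, 6.30% and 4.96% of the Ctss UMIs of kept cells. They are part of no class level or genotype comparison given below.

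Ciita was highest in dendritic-like cells, at 79.0, 90.3 and 62.5 CPM, from 190, 286 and 163 UMIs. B lymphocyte-like cells followed with 42.2, 78.4 and 34.9 CPM, a range that overlapped that of the dendritic-like cells and contained the macrophage-like values of 41.1, 40.4 and 37.0 CPM. Monocyte-like cells (18.8, 14.5 and 18.6 CPM) stood below all of these, and plasmacytoid dendritic-like cells (4.93, 15.1 and 18.9 CPM) overlapped them. The professional antigen-presenting classes thus led the order, with dendritic-like cells above macrophage-like cells in every library.

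In tubular cells Ciita was low. PTEC-like cells held 1.25 CPM (95% Poisson interval 0.973 to 1.58), 1.04 CPM (0.772 to 1.36) and 0.937 CPM (0.730 to 1.18), from 70, 51 and 70 UMIs over 8279, 4797 and 9516 cells. T lymphocyte-like cells, which in the mouse are not known to make class II molecules, held 1.54, 1.66 and 1.06 CPM. These levels rested on 10, 13 and 5 UMIs. Other tubular cells held 0.421, 0.535 and 0.616 CPM, from 7, 9 and 6 UMIs. As counted, the PTEC-like level was below that of the T lymphocyte-like cells in each library. The T lymphocyte-like UMIs were too few to order the 2 classes. When each cell was thinned to 1000 UMIs, 0.159%, 0.146% and 0.0912% of PTEC-like cells held a Ciita UMI, against 0.151%, 0.141% and 0.161% of T lymphocyte-like cells and 8.66%, 7.73% and 6.89% of dendritic-like cells. The PTEC-like share was above the T lymphocyte-like one in the Aoah-/- libraries and below it in WT, and the exact binomial intervals overlapped in each library. These shares rested on 10, 7 and 7 PTEC-like cells and 3, 3 and 2 T lymphocyte-like cells. A difference between the 2 classes was not detectable from so few cells. A comparison of Ciita with leukocyte genes in the same PTEC-like cells is given further below. Without thinning, the PTEC-like shares were 0.821%, 1.04% and 0.652% at median depths of 3046, 6490 and 4831.5 UMIs, and the T lymphocyte-like shares were 0.472%, 0.613% and 0.383% at 2538, 3033.5 and 2983 UMIs. Thinning left out 1987, 0 and 1840 PTEC-like cells and 132, 0 and 68 T lymphocyte-like cells as too shallow.

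Rfx5, the DNA-binding subunit of RFX, did not follow the class II pattern. It was spread over all classes at 14.4, 22.1 and 12.7 CPM in B lymphocyte-like cells, 7.49, 8.84 and 8.05 CPM in dendritic-like cells, 7.64, 6.84 and 7.81 CPM in other tubular cells and 5.94, 5.29 and 4.05 CPM in PTEC-like cells. Dendritic-like and other tubular cells thus differed by less than their ranges over libraries. Across 18 named classes, the Pearson correlation of log2(CPM + 10) between Rfx5 and the other members lay between −0.11 and 0.54, whereas it reached 0.98 between H2-DMa and Cd74 and 0.95 between Ciita and H2-DMa. These correlations are descriptions: the classes come from the same 3 libraries and differ in depth.

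**Figure D1:**
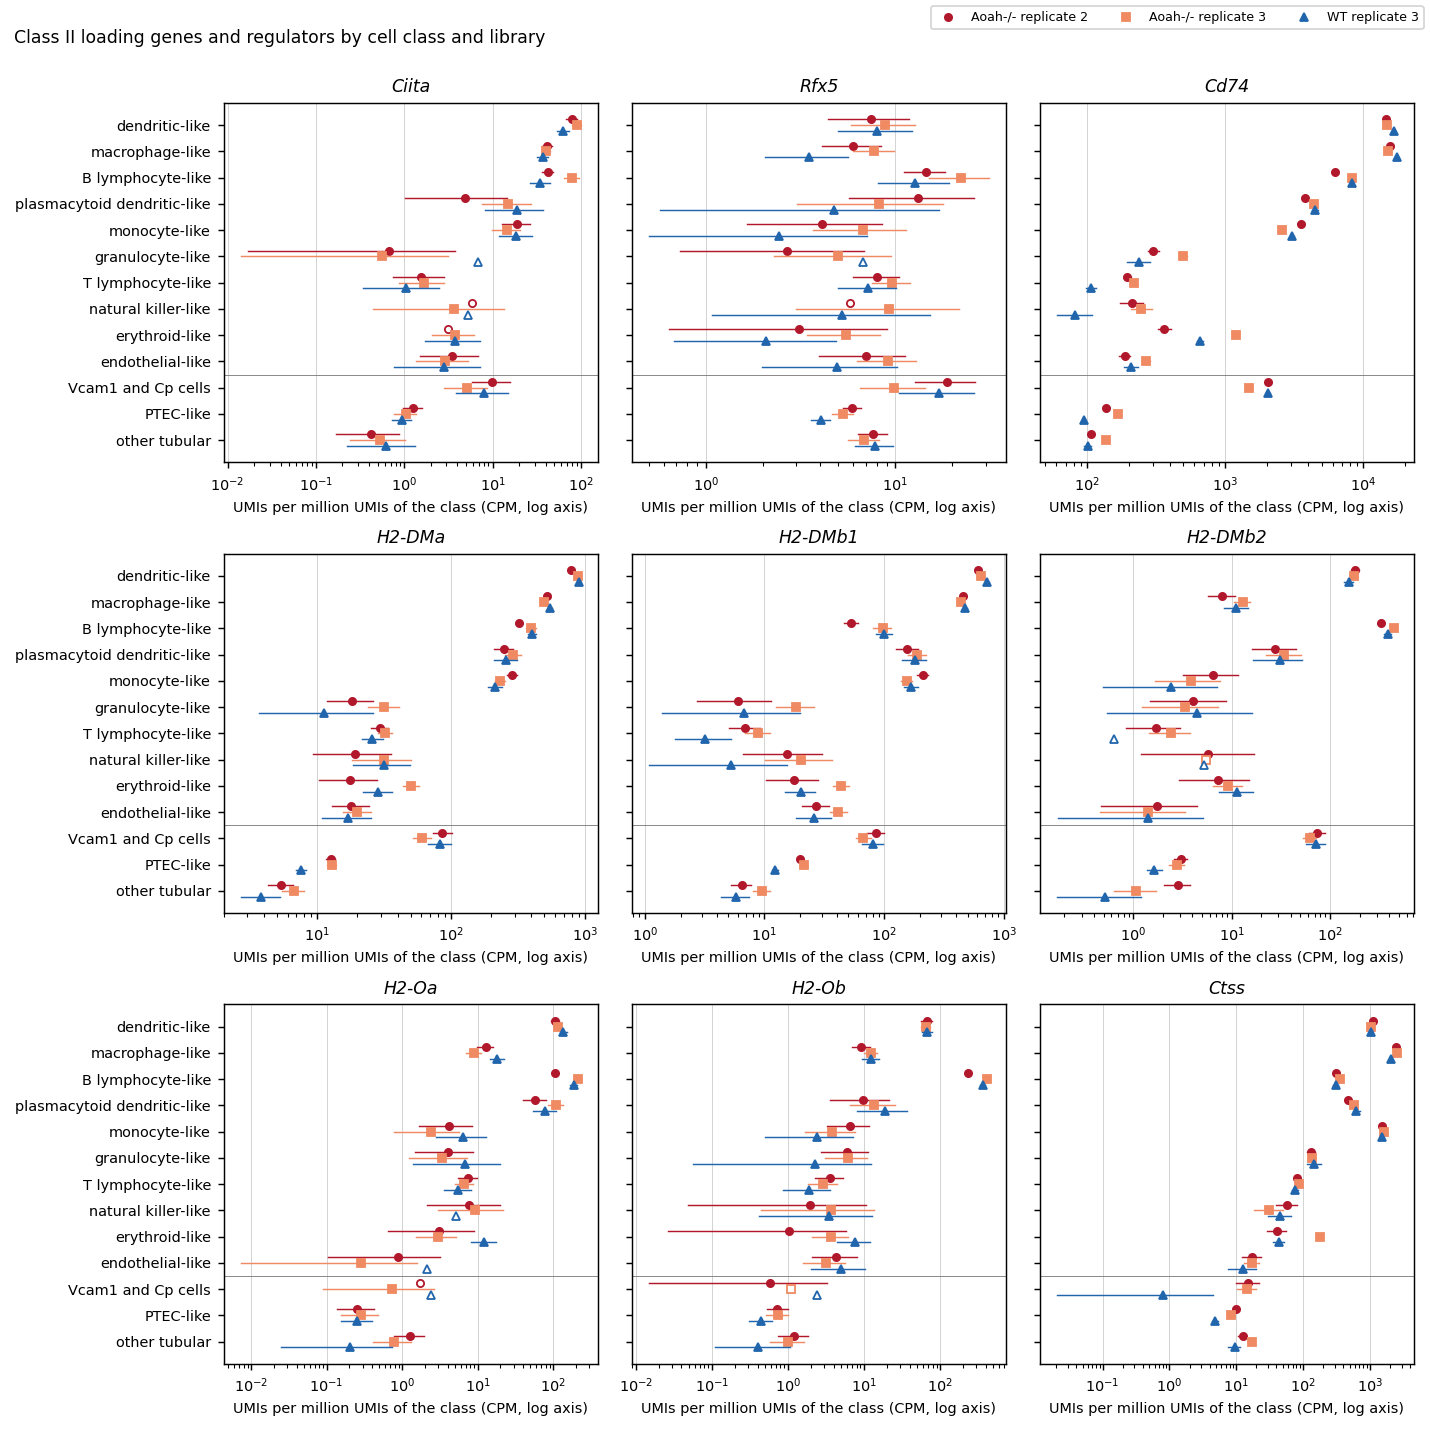
Level of each of the 9 genes (CPM, log axis) in 13 cell classes, 1 symbol per library with its 95% Poisson interval, which covers counting error only. Open symbols mark 0 UMIs and stand at the level of 3 UMIs. Cd74 spans from 14528 to 17576 CPM in dendritic- and macrophage-like cells down to 94.6 to 169 CPM in PTEC-like cells, whereas Rfx5 shows no such step between leukocyte and tubular classes.

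Cd74 was the most abundant member. Macrophage-like cells held 15735, 15144 and 17576 CPM and dendritic-like cells 14528, 14941 and 16723 CPM, ranges that overlapped. B lymphocyte-like cells held 6281, 8253 and 8302 CPM, below both in every library. PTEC-like cells held 137, 169 and 94.6 CPM, T lymphocyte-like cells 197, 220 and 107 CPM and other tubular cells 107, 136 and 101 CPM. As counted, both tubular classes were thus below the T lymphocyte-like cells in every library. For other tubular cells in WT the gap was small (985 UMIs against 506 UMIs in T lymphocyte-like cells). T lymphocyte-like cells were shallower, with medians of 2538, 3033.5 and 2983 UMIs against 8078, 7846 and 7272 UMIs in other tubular cells. The part of depth in comparisons with T lymphocyte-like cells was not tested. After thinning to 1000 UMIs, 11.1%, 15.1% and 7.13% of PTEC-like cells and 10.5%, 15.3% and 7.75% of T lymphocyte-like cells held a Cd74 UMI, and their exact binomial intervals overlapped in each library. The shares without thinning were 32.6%, 49.3% and 25.2% of PTEC-like cells and 22.5%, 33.5% and 20.5% of T lymphocyte-like cells at the median depths given above.

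H2-DMa, the alpha chain of H2-DM, was highest in dendritic-like cells at 795, 893 and 908 CPM, followed by macrophage-like cells at 527, 495 and 549 CPM and B lymphocyte-like cells at 322, 396 and 404 CPM, and the ranges of these 3 classes did not overlap. PTEC-like cells held 12.6, 12.9 and 7.53 CPM and other tubular cells 5.36, 6.66 and 3.80 CPM. T lymphocyte-like cells, at 29.4, 32.2 and 25.8 CPM, stood above both tubular classes. After thinning, a UMI of H2-DMa was found in 1.24%, 1.33% and 0.860% of PTEC-like cells and in 2.92%, 3.02% and 2.99% of T lymphocyte-like cells.

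The 2 genes for the beta chain of H2-DM were used differently by the antigen-presenting classes. H2-DMb1 stood at 612, 643 and 722 CPM in dendritic-like cells and 458, 441 and 476 CPM in macrophage-like cells, but only at 53.1, 97.0 and 100.3 CPM in B lymphocyte-like cells. H2-DMb2 was highest in B lymphocyte-like cells at 332, 448 and 386 CPM, intermediate in dendritic-like cells at 179, 174 and 155 CPM and low in macrophage-like cells at 8.00, 12.9 and 11.2 CPM. Per 100 UMIs of H2-DMb1 there were 626, 462 and 385 UMIs of H2-DMb2 in B lymphocyte-like cells, 29.3, 27.0 and 21.5 in dendritic-like cells and 1.75, 2.93 and 2.35 in macrophage-like cells. B lymphocyte-like cells were thus a class in which H2-DMb2 outnumbered H2-DMb1, in all 3 libraries. After thinning, 1.92%, 2.29% and 1.09% of PTEC-like cells held a UMI of H2-DMb1. The T lymphocyte-like shares were lower, at 0.453%, 0.754% and 0.565%. The exact binomial intervals were apart in the Aoah-/- libraries and overlapped in WT. For H2-DMb2 the shares were 0.397%, 0.396% and 0.104% against 0.101%, 0.189% and 0%, with overlapping intervals in each library.

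H2-O marked B lymphocyte-like and dendritic-like cells. H2-Oa stood at 105, 212 and 189 CPM in B lymphocyte-like cells and 106, 117 and 136 CPM in dendritic-like cells, with overlapping ranges, and at 57.5, 108 and 78.1 CPM in plasmacytoid dendritic-like cells. H2-Ob reached 234, 411 and 365 CPM in B lymphocyte-like cells, above the 66.5, 65.0 and 67.9 CPM of dendritic-like cells. Macrophage-like cells were low for both, with 12.7, 8.93 and 18.0 CPM of H2-Oa and 9.27, 12.3 and 12.2 CPM of H2-Ob. In PTEC-like cells the pair was near 0, at 0.250, 0.285 and 0.254 CPM (14, 14 and 19 UMIs) for H2-Oa and 0.731, 0.732 and 0.442 CPM (41, 36 and 33 UMIs) for H2-Ob.

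Ctss followed the myeloid classes. Macrophage-like cells held 2493, 2558 and 2071 CPM, monocyte-like cells 1544, 1631 and 1519 CPM and dendritic-like cells 1115, 1055 and 1028 CPM, an order that held in every library. B lymphocyte-like cells held 312, 361 and 311 CPM, and T lymphocyte-like cells 82.7, 88.1 and 75.0 CPM. PTEC-like cells (10.0, 8.35 and 4.80 CPM) and other tubular cells (12.5, 17.1 and 9.45 CPM) stood well under the T lymphocyte-like level. A UMI of Ctss was counted in 1.26%, 1.25% and 0.547% of thinned PTEC-like cells, against 8.76%, 8.67% and 8.47% of thinned T lymphocyte-like cells. Per 100 Cd74 UMIs, T lymphocyte-like cells held 42.1, 40.1 and 70.0 UMIs of Ctss, against 13.4, 15.3 and 10.6 over all leukocyte-like classes. Whether the T lymphocyte-like level is a background for Ctss was not tested.

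Within the macrophage-like cells, 1 of 2 clusters (2152 cells) was shallow. In the other cluster alone (816, 1302 and 645 cells), Ciita stood at 47.5, 42.0 and 46.3 CPM, Cd74 at 16478, 15523 and 18860 CPM and Ctss at 2650, 2636 and 2250 CPM. The place of macrophage-like cells in the order above was the same with these values.

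For 4 members the genes with the most similar profile over the 18 classes were listed, by Pearson correlation of log2(CPM + 10) among 15300 genes. Ciita was most like Rab39 (0.95, 236 UMIs), Fgd2 (0.94, 3602 UMIs) and Gm20513 (0.94, 170 UMIs), so 2 of these values rest on few molecules. Unlike Ciita, Rab39 and Fgd2 were highest in B lymphocyte-like cells and Gm20513 in macrophage-like cells. H2-DMa was most like Arl5c, Ly86 and Cd180 (0.95 each), of which Ly86 and Cd180 encode partners in a Toll-like receptor-related complex. H2-Oa was most like Kctd14 (0.96), AC125149.3 (0.93) and Hdac9 (0.93), and Ctss most like Cybb (0.96), which encodes a subunit of the phagocyte oxidase, Irf5 (0.95) and Ly86 (0.95).

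The cluster of dendritic-like cells was not uniform, and the members separated its subclusters. H2-Oa and H2-Ob were high in a conventional dendritic 1-like subcluster (135 cells, led by Naaa, Wdfy4, Irf8 and Xcr1), at 161, 179 and 141 CPM and at 144, 146 and 178 CPM. They were also high in the largest conventional dendritic 2-like subcluster (318 cells, with Cd209a and Tnip3), at 191, 200 and 271 CPM and at 104, 80.6 and 96.4 CPM. An unnamed subcluster of 212 cells, led by Retnla, Ccl6 and Lyz2, held almost no H2-O, at 3.30, 8.14 and 7.13 CPM of H2-Oa and 4.95, 8.14 and 1.43 CPM of H2-Ob, although it held 831, 938 and 958 CPM of H2-DMa, against 996, 942 and 989 CPM in the conventional dendritic 1-like subcluster.

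Ctss and H2-DMb2 divided the same subclusters in other ways. Ctss was lowest in the conventional dendritic 1-like subcluster, at 296, 309 and 300.4 CPM, against 1113, 1148 and 1164 CPM in the largest conventional dendritic 2-like subcluster and 1880, 1938 and 1646 CPM in the unnamed one. H2-DMb2 was highest in that largest subcluster, at 366, 344 and 299 CPM, and stood at 69.1, 89.5 and 69.3 CPM in the conventional dendritic 1-like one. Ciita overlapped between them, at 94.96, 89.5 and 48.5 CPM in the conventional dendritic 1-like subcluster, 80.5, 126.8 and 60.9 CPM in the largest conventional dendritic 2-like one and 66.0, 57.0 and 61.3 CPM in the unnamed one. The subclusters were found on genes of the same cells, with the class II genes left out, and their values are a description.

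**Figure D2:**
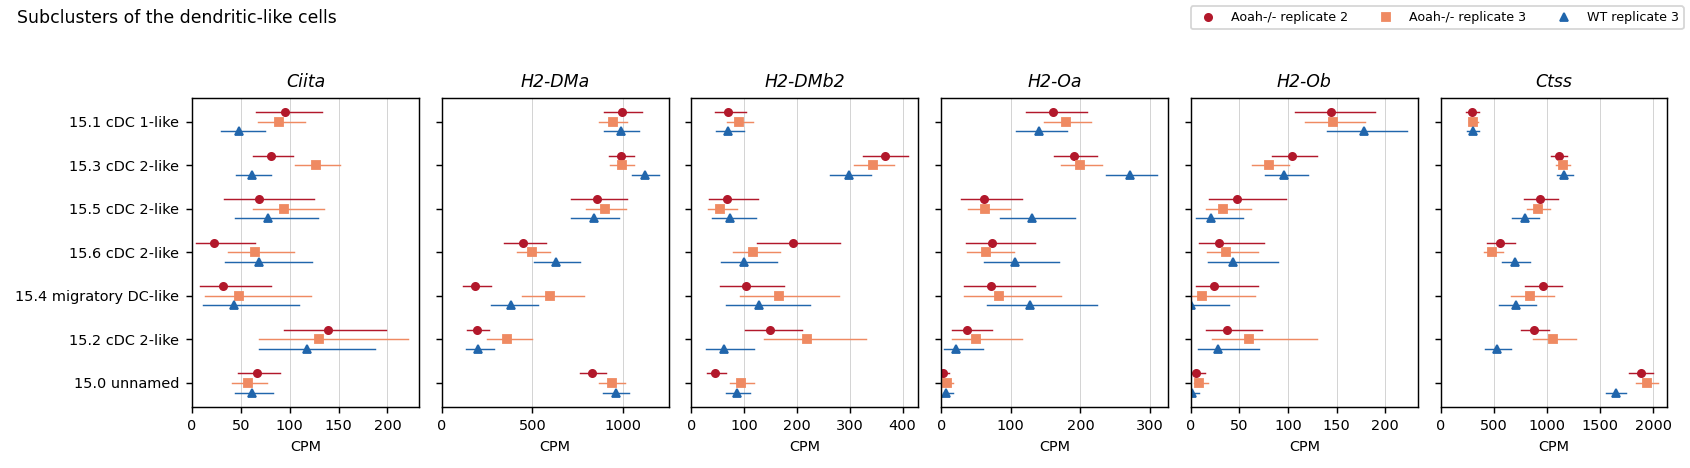
Level of 6 of the genes (CPM, linear axis from 0) in 7 subclusters of the dendritic-like cells, 1 symbol per library with its 95% Poisson interval. H2-Oa and H2-Ob are near 0 in the unnamed subcluster led by Retnla and Lyz2, and Ctss is 296 to 309 CPM in the conventional dendritic 1-like subcluster.

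Ratios between members were compared over classes, as UMIs of one gene per 100 UMIs of another, and the part of free RNA in them was not tested. The ratio of H2-DMb1 to Cd74 was higher in PTEC-like cells than in any leukocyte class. It was 14.5, 12.7 and 12.99 per 100, against 4.21, 4.30 and 4.32 in dendritic-like, 2.91, 2.91 and 2.71 in macrophage-like, 0.846, 1.17 and 1.21 in B lymphocyte-like and 3.52, 4.005 and 2.96 in T lymphocyte-like cells. The highest of 8 leukocyte classes, natural killer-like cells, reached 7.27, 8.21 and 6.38, from only 8, 11 and 3 UMIs of H2-DMb1. Endothelial-like cells had a similar ratio to PTEC-like cells, at 14.4, 15.5 and 12.5, and other tubular cells a lower one, at 5.99, 6.97 and 5.69.

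Within PTEC-like cells the level of H2-DMb1 was highest in 2 clusters led by Spp2 and Slc5a2, the latter the glucose transporter of the first segment of the proximal tubule. They held 36.2, 39.8 and 30.5 CPM and 34.1, 35.9 and 28.4 CPM of H2-DMb1, against 13.7, 14.2 and 9.78 CPM in the cluster led by Slc7a13, a transporter of the last segment. Per 100 Cd74 UMIs the first of these clusters held 19.6, 17.8 and 28.5 UMIs of H2-DMb1, and the Slc7a13 cluster 11.2, 9.41 and 9.81. The other PTEC-like clusters held 7.62, 11.4 and 6.17 CPM and 11.98, 11.1 and 5.52 CPM. The Slc7a13 cluster still contributed 355, 343 and 419 of the 1121, 1052 and 918 H2-DMb1 UMIs of the class. In each library the clusters led by Spp2 and Slc5a2 thus stood above all other PTEC-like clusters for H2-DMb1.

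H2-DMa and Ctss gave less distinct ratios. H2-DMa per 100 Cd74 was 9.18, 7.63 and 7.97 in PTEC-like cells (mean 8.26, SD 0.815, n = 3), above dendritic-like (5.47, 5.98 and 5.43), macrophage-like (3.35, 3.27 and 3.13) and B lymphocyte-like cells (5.12, 4.79 and 4.87) but below T lymphocyte-like cells (14.9, 14.7 and 24.1). Ctss per 100 Cd74 was 7.29, 4.95 and 5.08 in PTEC-like cells (mean 5.77, SD 1.31, n = 3), within the span from B lymphocyte-like (4.96, 4.37 and 3.74) to macrophage-like cells (15.8, 16.9 and 11.8). Among the class II chains, H2-Ab1 per 100 H2-Aa was 186, 199 and 193 in PTEC-like cells, whereas the 8 leukocyte classes ranged from 77.9 to 115. This ratio was not peculiar to the tubule, since a shallow dendritic-like subcluster (249 cells, median 1453 UMIs) had 178, 163 and 197. With 3 libraries, an exact paired permutation test of classes cannot give a p below 0.25, so none is given.

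**Figure D3:**
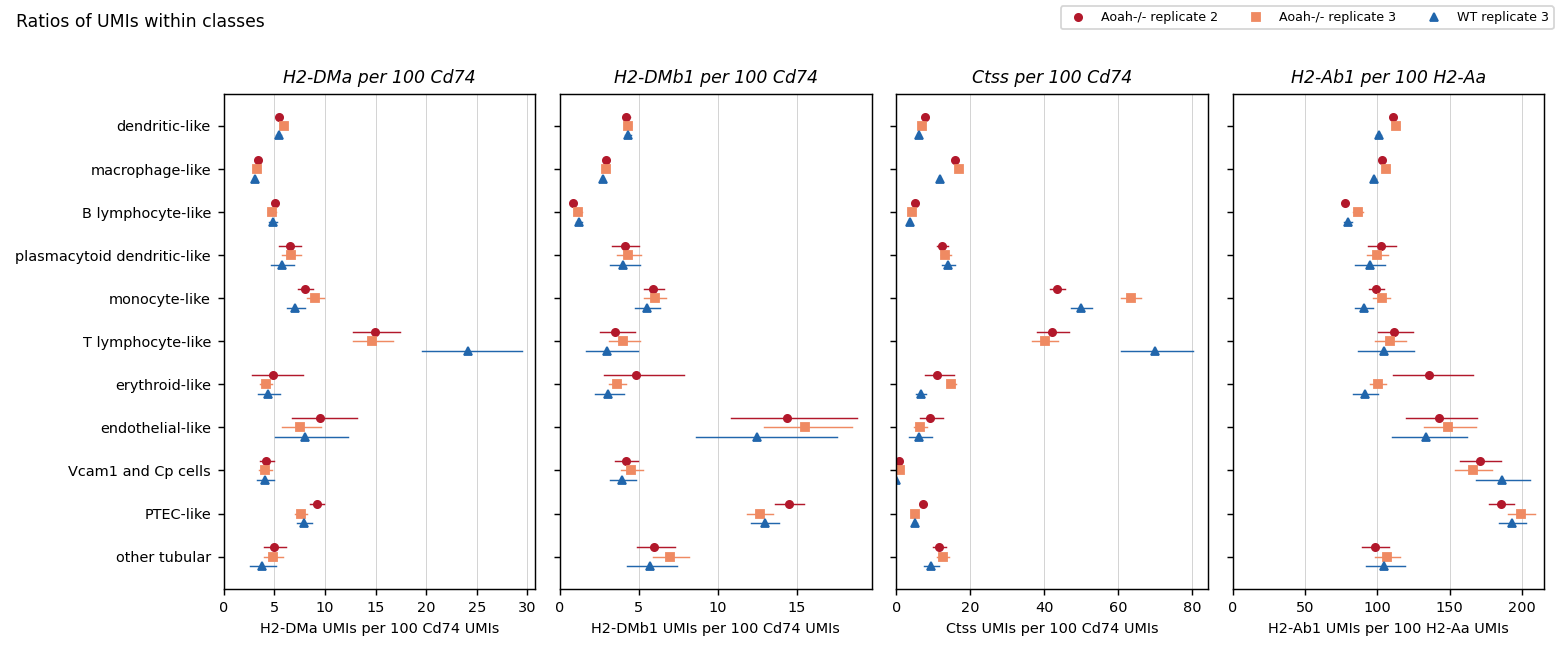
UMIs of H2-DMa, H2-DMb1 and Ctss per 100 UMIs of Cd74, and of H2-Ab1 per 100 UMIs of H2-Aa, in 11 cell classes, 1 symbol per library. For H2-DMb1, PTEC-like cells (12.7 to 14.5) and endothelial-like cells (12.5 to 15.5) lie above all leukocyte classes, and for H2-Ab1 PTEC-like cells (186 to 199) and the cells led by Vcam1 and Cp (166 to 186) lie apart.

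A second comparison set each member beside genes typical of leukocytes. The level in a class was divided by the level over all leukocyte-like classes of the same library, for the members and for 24 leukocyte genes such as Ptprc, Tyrobp, C1qa and Cd79a. Unlike the members, the 24 genes were not left out of the clustering, and some of them, such as C1qa and Cd79a, also named clusters. The list held none of the markers used to name dendritic-like cells. The part of these choices in the comparison was not tested. In PTEC-like cells the 24 genes had medians of 1.14%, 0.856% and 0.502% of the leukocyte level, and none was above 1.92%, 1.54% and 1.63%. H2-DMb1 stood at 9.79%, 8.58% and 4.38%, Ciita at 4.45%, 3.39% and 3.54%, H2-DMa at 4.11%, 3.89% and 1.999% and H2-DMb2 at 3.51%, 5.35% and 2.34%. These 4 members were above all 24 leukocyte genes in each library, as was Rfx5 at 73.7%, 58.9% and 65.5%. Cd74 (1.997%, 2.21% and 1.05%) was above all 24 in the Aoah-/- libraries and under 2 of them in the WT library. Ctss (1.08%, 0.717% and 0.505%), H2-Oa (0.645%, 0.835% and 0.496%) and H2-Ob (1.29%, 2.03% and 0.801%) lay within the leukocyte list, except that H2-Ob was above all of it in Aoah-/- replicate 3.

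In other tubular cells the members other than Rfx5 lay mostly among the leukocyte genes. The list reached up to 3.11%, 3.96% and 1.68% there, while Cd74 stood at 1.56%, 1.79% and 1.12%, H2-DMa at 1.75%, 2.02% and 1.01% and Ctss at 1.35%, 1.47% and 0.993%. H2-DMb1, at 3.15%, 3.82% and 2.05%, was above the list in 2 libraries and under 1 of its genes in Aoah-/- replicate 3. H2-DMb2 (3.25%) and H2-Oa (3.27%) were above the list in Aoah-/- replicate 2 and below it in WT (0.729% and 0.401%), and Ciita was above it in WT (2.33%, from 6 UMIs).

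Erythroid-like cells, which are not known to make class II molecules, gave a different picture in each library. The 24 genes ranged there from 1.57% to 15.01%, from 10.3% to 21.0% and from 2.07% to 9.13%, and Cd74 lay among them at 5.29%, 15.9% and 7.26%. In WT, however, Ciita (14.2%), H2-DMb2 (16.01%), H2-Oa (23.6%) and H2-Ob (13.6%) were above all 24, whereas in Aoah-/- replicate 2 Ciita had 0 UMIs and in Aoah-/- replicate 3 H2-Oa (8.76%) was below all 24.

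**Figure D4:**
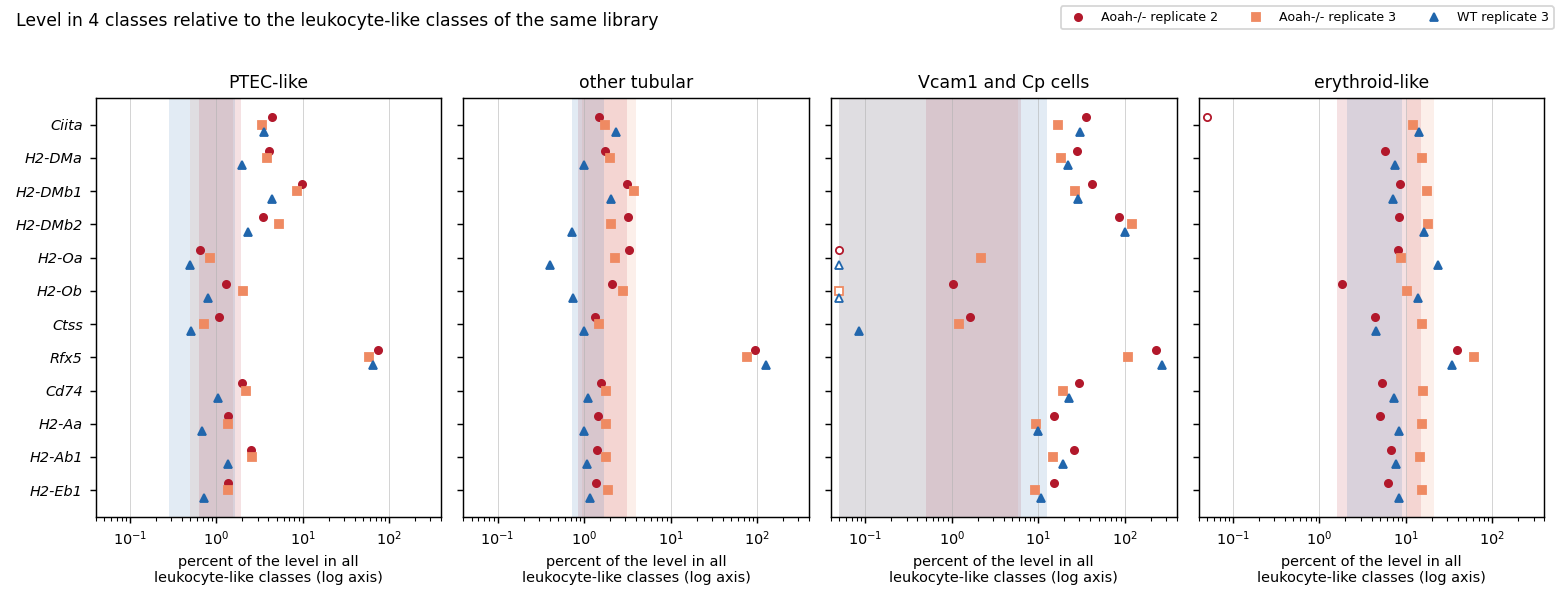
Level of each gene as a percent of its level over all leukocyte-like cells of the same library (log axis), in PTEC-like, other tubular, Vcam1- and Cp-led and erythroid-like cells, with the range of 24 leukocyte genes shaded per library. Values at or below 0.05% stand at 0.05%, and open symbols mark 0 UMIs. H2-DMb1, Ciita, H2-DMa, H2-DMb2 and Rfx5 lie above the shaded range in PTEC-like cells, and in the Vcam1- and Cp-led cells the H2-DM genes, Ciita, Rfx5 and Cd74 do so by a wider margin while Ctss, H2-Oa and H2-Ob do not.

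A small group of cells stood apart from the named tubular classes. They came from a cluster of mixed content that had been named fibroblast-like from its markers. It held 4 subclusters led by Vcam1 and Cp (463 cells: 132, 253 and 78), grouped after their values had been seen. Of these, 1 subcluster (123 cells) was named injured tubule-like from its markers and the other 3 stayed unnamed. They carried the proximal endocytic receptor Lrp2 at 329, 332 and 334 CPM (1345, 1374 and 1336 CPM in PTEC-like cells) and the injury marker Havcr1 at 179, 165 and 221 CPM (1.78, 1.46 and 0.816 CPM in PTEC-like cells). Macrophage-like cells also held Lrp2, at 191, 130 and 175 CPM, so low Lrp2 alone does not define an epithelial cell here, whereas their Havcr1 was 0.545, 0.823 and 0 CPM.

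In these cells Cd74, H2-DMa and Ciita stood above PTEC-like cells and below dendritic-, macrophage- and B lymphocyte-like cells in every library. Cd74 stood at 2040, 1480 and 2049 CPM, H2-DMa at 86.4, 60.5 and 83.1 CPM and H2-DMb1 at 85.2, 67.2 and 80.7 CPM. H2-DMb2 reached 74.1, 62.7 and 71.8 CPM, which was 85.3%, 122% and 102% of its level over all leukocyte-like cells. Ciita stood at 9.92, 5.14 and 8.07 CPM, from 17, 14 and 10 UMIs, and Rfx5 at 18.7, 9.91 and 17.0 CPM. Each was above its PTEC-like level in all 3 libraries. H2-DMb2 was also above macrophage-like cells and Rfx5 above dendritic- and macrophage-like cells in each library, and H2-DMb1 was above B lymphocyte-like cells in Aoah-/- replicate 2.

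Ctss and H2-O were the exceptions. Ctss was counted at 15.2, 14.3 and 0.807 CPM (26, 39 and 1 UMIs), which is 1.64%, 1.23% and 0.0848% of the leukocyte level, against medians of the leukocyte genes in these cells of 1.62%, 1.18% and 0.360%. The Aoah-/- values were near these medians and the WT value, from 1 UMI, was below. H2-Oa had 0, 2 and 0 UMIs and H2-Ob 1, 0 and 0 UMIs in 463 cells. The 24 leukocyte genes reached at most 6.27%, 5.85% and 12.8% (Csf1r in each library), whereas Cd74 stood at 29.6%, 19.4% and 22.8% and Ciita at 35.3%, 16.8% and 30.5%. Per 100 Cd74 UMIs, these cells held 4.18, 4.54 and 3.94 UMIs of H2-DMb1, near the ratio of dendritic-like cells, and 0.744, 0.967 and 0.0394 UMIs of Ctss, below every leukocyte class.

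The level of Cd74 differed between the 4 subclusters, which held as few as 6 cells of a library, and was above the PTEC-like level in each of them. It stood at 1366, 998 and 1785 CPM, at 2966, 2720 and 2095 CPM, at 2371, 1527 and 2203 CPM and at 848, 1035 and 1422 CPM, the last being the injured tubule-like one. A separate injured tubule-like class, led by Lcn2 and Clu and with Lrp2 at only 54.5, 54.8 and 54.1 CPM, held 125, 133 and 104 CPM of Cd74, the level of other tubular cells. Without the cells that held a UMI of the leukocyte list, 110 of the Vcam1- and Cp-led cells remained, and Cd74 averaged 2070 CPM over the libraries against 1856 CPM in all of them. At resolution 2, clusters led by Vcam1 and Cp held 902 cells and a Cd74 mean of 1438 CPM.

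PTEC-like cells were also divided by their own Cd74 count, to see which genes moved with it. Cells with 20 or more Cd74 UMIs were few (45, 68 and 53) and deep, with H2-DMb1 at 87.6, 79.9 and 67.6 CPM against 12.7, 13.6 and 8.18 CPM in cells without a Cd74 UMI. H2-DMa was 84.3, 68.3 and 76.0 CPM against 6.65, 6.26 and 4.46 CPM, and H2-DMb2 43.8, 26.1 and 40.9 CPM against 0.955, 0.569 and 0.522 CPM. Ciita had 7, 2 and 10 UMIs in the cells with 20 or more (7.66, 1.11 and 8.35 CPM), against 0.661, 0.621 and 0.522 CPM in cells without a Cd74 UMI. In cells with 10 to 19 Cd74 UMIs it stood at 4.02, 3.73 and 6.92 CPM, from 7, 7 and 10 UMIs. H2-Ob was 6.57, 2.77 and 8.35 CPM (6, 5 and 10 UMIs) in cells with 20 or more, against 0.404, 0.362 and 0.239 CPM in cells without. H2-Oa was 2.19, 2.22 and 4.18 CPM (2, 4 and 5 UMIs) against 0.257, 0.259 and 0.174 CPM.

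Leukocyte genes moved with Cd74 as well in these cells. Cd79a, a B lymphocyte receptor chain, stood at 63.5, 10.5 and 40.1 CPM in the cells with 20 or more Cd74 UMIs against 2.09, 0.983 and 0.5001 CPM in those with none, and Ctss at 52.5, 21.1 and 45.1 CPM against 8.30, 7.09 and 3.39 CPM. Tyrobp, a myeloid adaptor, changed less in the Aoah-/- libraries (20.8 and 16.6 CPM against 14.8 and 11.4 CPM) than in WT (36.7 against 5.35 CPM). C1qa stood at 47.1, 26.6 and 62.6 CPM against 14.2, 8.85 and 5.44 CPM. Ptprc stood at 13.1, 16.6 and 16.7 CPM against 4.85, 7.30 and 1.74 CPM, and Lyz2 was higher in each library as well. Lrp2 was lower in the cells with 20 or more Cd74 UMIs, at 1232, 1085 and 1096 CPM against 1395, 1420 and 1326 CPM. Vcam1 was higher in them, at 99.6, 54.4 and 56.8 CPM against 3.34, 2.59 and 1.04 CPM. Havcr1 was higher as well, at 19.7, 2.77 and 6.68 CPM (18, 5 and 8 UMIs) against 0.661, 0.828 and 0.457 CPM. The part that doublets with leukocytes have in these cells was not tested.

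Between the genotypes, the members did not move together in antigen-presenting cells. A gene was counted as higher where both Aoah-/- libraries were at least 1.5-fold above the WT library, and only genes with at least 30 UMIs in a class were compared. In dendritic-like cells 0 of 9 members met this rule upward (6.57% of 9676 genes did) or downward (1.19%), and the median log2 ratio of the members was −0.04 against 0.12 for all genes. In B lymphocyte-like cells 0 of 9 did so upward (background 6.43%) or downward (6.00%), with a median of −0.17 against 0.02. There the Aoah-/- libraries differed most from each other: Ciita stood 0.27 and 1.17 above WT on the log2 scale and H2-Oa −0.85 and 0.16. In macrophage-like cells 1 of 9 members was higher (background 7.94%), Rfx5 at 6.00 and 7.76 CPM against 3.52 CPM, from 33, 66 and 17 UMIs. None was lower there (background 1.64%), and the median was −0.09 against 0.17.

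In PTEC-like cells 5 of 9 members were higher in both Aoah-/- libraries, where 9.45% of 13835 genes were. Relative to WT, the mean of the Aoah-/- libraries on the log2 scale, with the SD between the 2 Aoah-/- libraries, was 0.76 (SD 0.02) for H2-DMa, 0.75 (SD 0.07) for H2-DMb1, 0.82 (SD 0.10) for H2-DMb2, 0.73 (SD 0.00) for H2-Ob and 0.94 (SD 0.19) for Ctss. Cd74, at 0.70 (SD 0.21), missed the rule through Aoah-/- replicate 2, and Ciita (0.29, SD 0.19), Rfx5 (0.47, SD 0.12) and H2-Oa (0.07, SD 0.13) did not meet it. No member was lower (background 3.25%), and the median of the members was 0.73 against −0.00 for all genes.

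The same libraries differed in other ways that move with this result. The median of the 24 leukocyte genes in PTEC-like cells, as a percent of the leukocyte level, was also higher in both Aoah-/- libraries (1.14% and 0.856% against 0.502%). In T lymphocyte-like cells 4 of 8 members were higher by the same rule (background 4.41%) and 0 of 8 lower (background 2.13%). Cd74 stood there at 0.96 (SD 0.11) and H2-DMb1 at 1.31 (SD 0.24). The other members past the rule were low in WT: H2-DMb2 was found in 0% of its cells without thinning, and H2-Ob had 23, 23 and 9 UMIs. The PTEC-like clusters had different makeups, since the cluster led by Akr1c21 and Kap held 1120 and 551 cells in the Aoah-/- libraries and 3014 in WT. The 2 clusters led by Spp2 and Slc5a2 held 13916264, 12281609 and 9572294 UMIs and 3576200, 3144260 and 3347718 UMIs. The whole PTEC-like class held 56104187, 49192499 and 74730801 UMIs. The part of these differences in the result was not tested. Within the clusters led by Spp2 and Slc5a2, H2-DMb1 was 36.2 and 39.8 CPM against 30.5 CPM and 34.1 and 35.9 CPM against 28.4 CPM, and none of these reached 1.5-fold. The Slc7a13 cluster and the cluster led by Akr1c21 and Kap were higher in both Aoah-/- libraries but did not meet the rule either. Only 1 PTEC-like cluster met it, at 11.98 and 11.1 CPM against 5.52 CPM, from 118, 68 and 42 UMIs. Over the other filters and clusterings tried, the median of the members ranged from 0.63 to 1.20 in PTEC-like cells, and in macrophage-like cells it lay on both sides of 0, from −0.18 to 0.028.

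In other tubular cells 3 of 8 members were higher (background 5.93% of 13048 genes), all at low counts. H2-DMb2 stood at 2.83 and 1.07 CPM against 0.514 CPM (47, 18 and 5 UMIs) and H2-Ob at 1.20 and 1.01 CPM against 0.411 CPM (20, 17 and 4 UMIs). H2-Oa had 34 UMIs in the Aoah-/- libraries against 2 in WT, a ratio of 4.95 with a counting interval of 1.27 to 42.5. No member was lower (background 2.61%), Ciita (22 UMIs) was not compared, and the median was 0.65 against −0.02, with a range of 0.36 to 1.53 over the other filters and clusterings tried. In the Vcam1- and Cp-led cells 1 of 7 members was higher (background 5.79%), namely Ctss, from 65 UMIs in the Aoah-/- libraries against 1 in WT, a ratio of 18.1 with a counting interval of 3.14 to 727. None was lower (background 3.20%), and Cd74 there stood at −0.01 and −0.47 on the log2 scale relative to WT. Ctss in these cells stood at 1.64% and 1.23% of the leukocyte level in the Aoah-/- libraries and at 0.0848% in WT. The medians of the leukocyte genes there were also higher in the Aoah-/- libraries, at 1.62% and 1.18% against 0.360%. The part of this difference in the Ctss ratio was not tested.

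**Figure D5:**
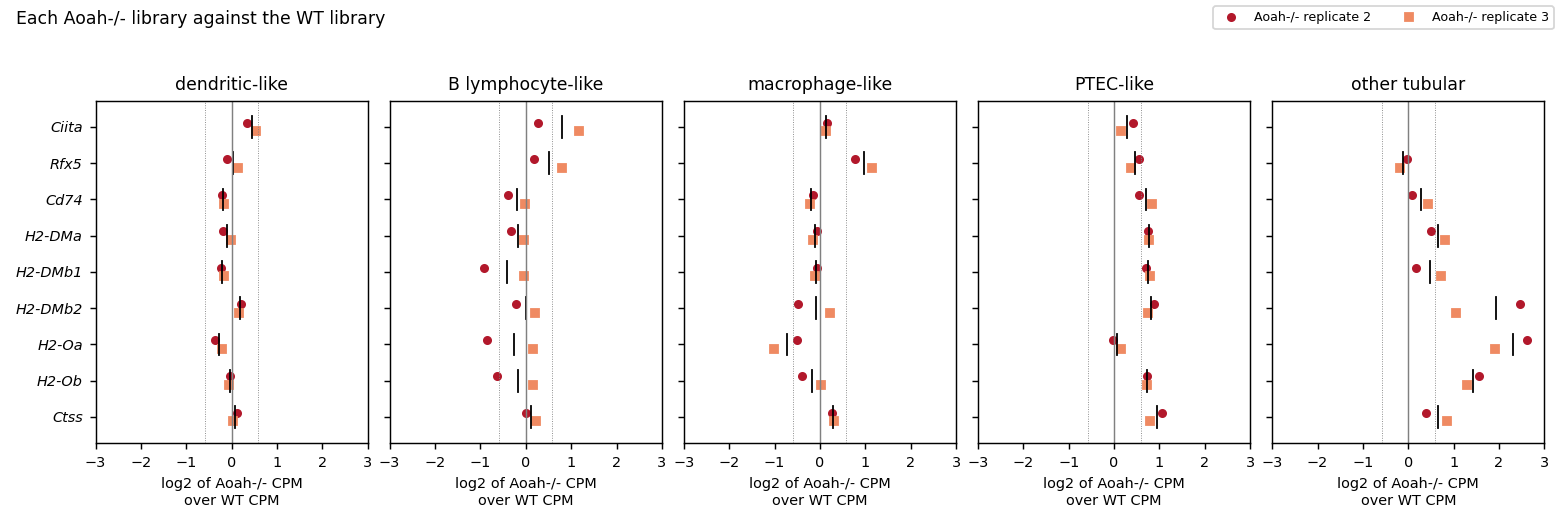
Log2 ratio to the WT library of each gene in 5 cell classes, with 1 point for each Aoah-/- library, their mean as a black tick and dotted lines at 1.5-fold. In PTEC-like cells 8 of 9 genes lie above 0 in both libraries, and in dendritic-, B lymphocyte- and macrophage-like cells they lie on both sides of 0.

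Other genes of the pathway, 28 in all, were compared by the same rule. Of the class II chains 0 of 3 met it in PTEC-like cells, with a median log2 ratio of 0.64, and in dendritic-like cells 0 of 4, with a median of −0.09. Irf1, which carries the interferon-gamma signal to Ciita, was higher in PTEC-like cells, at 16.3 and 10.2 CPM against 6.44 CPM. Of the endosomal processing genes 1 of 7 was higher there, the protease gene Ctsb at 335 and 329 CPM against 218 CPM, and of 2 costimulation genes compared, Cd40 was, at 0.285 and 0.264 CPM against 0.1204 CPM. These Cd40 levels were near or below those of H2-Oa in the same cells, which rested on 14, 14 and 19 UMIs. Over the whole pathway list 4 of 26 genes were higher in PTEC-like cells, with a background of 9.45%. There were 2 of 25 in other tubular cells (March1 and Cd86, background 5.93%), 2 of 27 in macrophage-like cells (Ctsd and Cd80, background 7.94%) and 2 of 28 in B lymphocyte-like cells (Rfxank and Cd80, background 6.43%), shares near the background. The count was 0 of 28 in dendritic-like and 0 of 24 in Vcam1- and Cp-led cells (backgrounds 6.57% and 5.79%), and none was lower in these classes.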

How the data were processed

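Kidney cells of 3 mice were captured in droplets, 1 library per mouse. The authors deposited, for each library, raw UMI counts per gene and cell barcode, not normalized. Their processing notes name Cell Ranger 3.1.0, STAR, Seurat 4.2.0 and the mm10 build, while the header of the matrices names Cell Ranger 6.1.2. A barcode was kept (59262 of 73281) if it had 200 or more genes and if mitochondrial UMIs made up no more than 50% of its total. Cells of the 3 libraries were clustered together (scanpy 1.11.5, igraph 0.11.9, Leiden resolution 1, 2000 variable genes, 50 principal components, 15 neighbours), with 14 genes, the members and class II chains among them, left out. The dendritic-like and fibroblast-like clusters, the mixed cluster among the latter, were clustered again (30 principal components, resolution 0.5). Clusters were named from marker lists, or left unnamed. Scrublet, run with an expected doublet rate of 0.08, called 2.41%, 0% and 1.35% of cells as doublets. These calls lay below that rate and were not used, so doublets were kept, and their true share was not tested. An alternative left out the 10% of cells with the highest scores.

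UMIs were summed per class and library and divided by the class total (CPM). Intervals are exact 95% Poisson intervals for levels and Clopper-Pearson intervals for shares, and cover counting error only. A count of 0 allows up to 3 UMIs. Genotypes were compared by dividing the mean of the Aoah-/- libraries by the WT value, over genes with at least 30 UMIs, without a test, as there was 1 WT library. All 9 members were named, with a 28-gene pathway list and, for 4 members, the 3 most similar genes. Values of 1 gene of the pathway list are not reported here. Members, lists and comparisons were chosen with earlier results of these data known. The code was tested on simulated counts. Alternatives changed the filters, the clustering, the treatment of doublets and the summing, and left out each Aoah-/- library.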

Additional observations from a re-analysis of the deposited data

Results flagged for a closer look

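For 24 of 51 combinations compared of a member with a tubular and an antigen-presenting class, both Aoah-/- libraries stood on one side of the WT library in the tubular class and on the other side in the antigen-presenting class. Over all genes compared, 22.4% of the combinations were of this kind. These differences were not tested, and each is given as the difference of the log2 ratios (tubular minus antigen-presenting class). They rest on the same 3 libraries, and the members are not independent of each other.

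PTEC-like cells differed from dendritic-like cells by 0.86 for H2-DMa, 0.95 for H2-DMb1, 0.77 for H2-Ob and 0.88 for Cd74. Against B lymphocyte-like cells the differences were 0.93 for H2-DMa, 1.17 for H2-DMb1 and 0.89 for Cd74, and against macrophage-like cells 0.86, 0.83 and 0.88 for the same genes.

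Other tubular cells differed from dendritic-like cells by 0.77 for H2-DMa, 0.67 for H2-DMb1, 2.60 for H2-Oa, 1.48 for H2-Ob and 0.45 for Cd74. Against B lymphocyte-like cells the differences were 0.83 for H2-DMa, 0.89 for H2-DMb1, −0.63 for Rfx5 and 0.46 for Cd74. Against macrophage-like cells they were 0.77 for H2-DMa, 0.55 for H2-DMb1, 3.04 for H2-Oa, −1.08 for Rfx5 and 0.46 for Cd74. The values for H2-Oa rest on 2 UMIs in the other tubular cells of the WT library.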

How the results depend on the processing

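No paired analysis was possible because the genotypes share 1 replicate number only. No member past 1.5-fold in both Aoah-/- libraries reversed its sign. The medians were not part of this check, and those of macrophage- and B lymphocyte-like cells changed sign. Values of single members moved by more than the SD between the Aoah-/- libraries in 55 of 108 cases in PTEC-like cells. In other tubular, macrophage-, dendritic- and B lymphocyte-like cells these were 48 of 92, 35 of 99, 25 of 81 and 0 of 99. In the same order of classes, 106, 90, 90, 73 and 86 values kept their sign. The median log2 ratio of the members in PTEC-like cells was 0.97 with at most 20% mitochondrial UMIs, 1.20 with at least 500 genes per barcode, 1.00 over all barcodes, 0.68 at resolution 2, 0.65 with 30 principal components, 1.00 with each library clustered alone, 0.90 without the highest Scrublet scores, 0.77 without cells holding leukocyte UMIs and 0.63 as a mean over cells. In other tubular cells it was 1.16 with at least 500 genes, 1.20 over all barcodes, 1.29 with a common lowest UMI total, 1.10 at resolution 2, 1.37 with 30 principal components, 1.53 clustered alone, 0.36 without cells holding leukocyte UMIs and 1.00 as a mean over cells. In macrophage-like cells it was −0.16 with at most 20% mitochondrial UMIs, −0.022 with 30 principal components, 0.028 clustered alone, −0.18 without the highest Scrublet scores and −0.021 as a mean over cells. In dendritic-like cells it was −0.28 with 30 principal components. H2-DMa per 100 Cd74 UMIs in PTEC-like cells was 7.21 with at least 500 genes, 7.43 over all barcodes, 9.37 without cells holding leukocyte UMIs and 7.12 as a mean over cells. Ctss per 100 Cd74 UMIs was 7.62 with at most 20% mitochondrial UMIs, 8.29 with at least 500 genes, 8.13 over all barcodes and 8.48 as a mean over cells. Ciita in PTEC-like cells was 1.505 CPM with at most 20% mitochondrial UMIs, 1.31 CPM with at least 500 genes, 1.29 CPM clustered alone and 0.854 CPM without cells holding leukocyte UMIs. Leaving out either Aoah-/- library gave medians of 0.70 to 0.75 in PTEC-like, 0.45 to 0.83 in other tubular, −0.059 to 0.016 in macrophage-like (0.016 without Aoah-/- replicate 2), −0.11 to −0.025 in dendritic-like and −0.33 to 0.17 in B lymphocyte-like cells (0.17 without Aoah-/- replicate 2). The same gave 7.80 to 8.57 for H2-DMa and 5.02 to 6.18 for Ctss per 100 Cd74 UMIs, and 0.987 to 1.09 CPM for Ciita. The cause of these shifts was not tested. The other 59 values of these comparisons moved by less than the spread between libraries. Dendritic-like cells could not be compared over all barcodes or with each library clustered alone, and other tubular cells lacked the distal convoluted tubule under at most 20% mitochondrial UMIs and over all barcodes. Depth limits Ciita, H2-Oa and H2-Ob in tubular cells, where a library held 2 to 70 UMIs of each.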
